A study of Mus musculus with 100 samples.

Results

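Followed here were 8 genes that respond to mechanical strain and are counted among the targets of the transcriptional co-activators YAP and TAZ: Ankrd1, Ankrd2, Ctgf, Cyr61, Thbs1, Amotl2, Csrp3 and Hbegf. They were taken from the table by name, and all 8 of 8 were among the 17310 genes of the count table. RNA had been sequenced from whole knee joints of mice of 3 inbred strains, which the authors grade as not susceptible (MRL/MpJ), moderately susceptible (C57BL/6) and highly susceptible (STR/ort) to osteoarthritis. They describe STR/ort as a strain in which osteoarthritis arises spontaneously. At 10 weeks of age the right knee was loaded once in compression with 10 to 12 N, which ruptured the anterior cruciate ligament, and the left knee of injured mice gave the uninjured contralateral joint. The 100 libraries fell into 21 groups: 4 libraries per strain at 0-day, before injury, and then, after injury, 5 injured and 5 uninjured contralateral libraries per strain at each of 3 times (1-day, 1-week, 2-weeks), except that the uninjured groups of MRL/MpJ and STR/ort at 1-week held 4. The labels name no transgene, deletion or drug in any group. The contralateral joint belonged to an animal that had been injured on the other side, so it is not an untouched control, and each strain is a single inbred background.

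In cells that are rounded or crowded, the Hippo kinases MST1/2 and LATS1/2 phosphorylate YAP (Yap1) and TAZ (Wwtr1) and hold them in the cytoplasm. When a cell is stretched, spreads on a stiff matrix or loses its neighbours, actin tension lets both enter the nucleus, where they bind the TEAD factors and raise a small set of genes. In joints, chondrocytes, synovial fibroblasts, bone cells and muscle fibres all sense load in this way. Among the members, Ctgf (also Ccn2) and Cyr61 (also Ccn1) are secreted matrix proteins of the CCN family, Thbs1 is the matrix protein thrombospondin-1, Hbegf is a membrane-bound ligand of the EGF receptor, Amotl2 is a junction protein that binds YAP and holds it back, and Ankrd1, Ankrd2 and Csrp3 are stretch proteins of the sarcomere that striated muscle makes in abundance.

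The joints held RNA of many tissues. Markers of cartilage (5 of 5 measured, Col2a1 and Acan among them), fibroblasts (5 of 5), bone (4 of 4), endothelium (5 of 5) and macrophages (5 of 5) had counts in every library, and so did all 12 fast muscle markers, whose summed level ran from 17160 CPM (read counts scaled for library size) to 136900 CPM over the libraries. A change in a member can therefore follow from fewer or more cells of a type or from less or more RNA per cell, and in bulk tissue these cannot be told apart. Total counts ran from 6182016 to 20986027 per library, and the lowest count of any member in any library was 27, for Csrp3. The 0-day, 1-day and 1-week libraries are batch 1 in the labels (70 libraries) and the 2-weeks libraries are batch 2 (30 libraries), so 2-weeks and batch cannot be told apart and no member was tested across that step. The 4 STR/ort libraries of 0-day stood apart in 11 immediate early genes (Fos, Egr1, Jun and others that rise within minutes of handling or stress), with a summed level of 1476 to 2662 CPM beside 225 to 304 CPM in the other 8 libraries of 0-day, and so did the STR/ort libraries numbered 5 at 1-day, at 986 CPM injured and 1016 CPM uninjured. Apart from the 2-weeks joints, which the labels pair by animal, the labels do not say that libraries of a group came from separate animals, and p-values then measure only the spread between these libraries.

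YAP and TAZ do not touch DNA themselves, and the TEAD factors that carry them read the letters GGAATG. The RefSeq promoter table (build GRCm38.p6) matched 5 of the 8 members by symbol, all but Ctgf, Thbs1 and Hbegf, and the 250 bases before each transcript start in the table were searched on both strands (6 windows, since Csrp3 has 2 starts in the table), where the other strand reads CATTCC. Of 32851 windows of that length in the table, 12.6% held these letters. Ankrd1 held them at 2 places, 210 to 205 and 123 to 118 bases before its start, Cyr61 at 1 place, 103 to 98 bases before, and Amotl2 at 1 place, 65 to 60 bases before, while the windows of Ankrd2 and both of Csrp3 held none. The AP-1 letters TGANTCA (6.75% of windows), the CArG box of SRF (1.47%) and the MEF2 site (2.92%) were in none of the 6 windows. The Amotl2 window belongs to a transcript start inside the annotated gene, and that of Ankrd2 lies partly inside its gene. An annotated exon overlaps the Ankrd1 window too. The stretches around the letters in Ankrd1 and Amotl2, and the whole windows of Cyr61, which has the letters, and of the outermost start of Csrp3, which lacks them and moved the other way from Ankrd1 after injury, are shown 5′ to 3′ on the strand of the gene, with the TEAD letters in capitals. A match of letters is a description of the window, not evidence of binding.

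Ankrd1, chr19:36120037-36120066, minus strand: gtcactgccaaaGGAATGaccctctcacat
Ankrd1, chr19:36119950-36119979, minus strand: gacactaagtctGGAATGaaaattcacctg
Amotl2, chr9:102717727-102717756, plus strand: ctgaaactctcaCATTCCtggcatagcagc
Cyr61, chr3:145649986-145650235, minus strand: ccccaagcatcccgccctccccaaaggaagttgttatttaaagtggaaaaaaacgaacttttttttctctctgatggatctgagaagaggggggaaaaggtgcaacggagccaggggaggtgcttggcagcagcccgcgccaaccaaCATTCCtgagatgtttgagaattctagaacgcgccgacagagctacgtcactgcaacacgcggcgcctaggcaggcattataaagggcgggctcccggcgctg
Csrp3, chr7:48848052-48848301, minus strand: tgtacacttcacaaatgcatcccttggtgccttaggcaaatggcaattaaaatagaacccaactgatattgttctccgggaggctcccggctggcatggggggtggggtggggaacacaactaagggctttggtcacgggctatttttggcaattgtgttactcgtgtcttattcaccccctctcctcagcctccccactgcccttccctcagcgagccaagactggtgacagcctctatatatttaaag

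The question put to the joints was which of these genes injured knees held at another level than uninjured contralateral knees, strain by strain and time by time. Joints were compared as groups, without pairing by animal. A gene was called when edgeR's quasi-likelihood test, with Benjamini-Hochberg adjustment over all 17310 genes, gave an adjusted p below 0.05 and the fold change exceeded 1.5. Of the 72 tests (8 members, 3 strains, 3 times), 18 were called, 13 higher and 5 lower in injured joints, which is 25% of the tests beside 4.32% over all genes (3.24% higher and 1.08% lower). At 1-day, 2 members were called in MRL/MpJ, 4 in C57BL/6 and 2 in STR/ort, beside 2.02%, 5.6% and 4.31% of all genes. At 1-week, 1 was called in MRL/MpJ, 5 in C57BL/6 and 1 in STR/ort, beside 3.13%, 5.82% and 9.21%. At 2-weeks, 1 was called in each strain, beside 1.16%, 2.95% and 4.66% of all genes in MRL/MpJ, C57BL/6 and STR/ort. The calls were spread unevenly over the members: Ankrd1 was called higher 4 times and Csrp3 lower 4 times, Hbegf was called higher 5 times, Cyr61 and Amotl2 higher 2 times each and both only in C57BL/6, Ankrd2 lower once, and Ctgf and Thbs1 in none of their 9 tests.

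**Figure D1:**
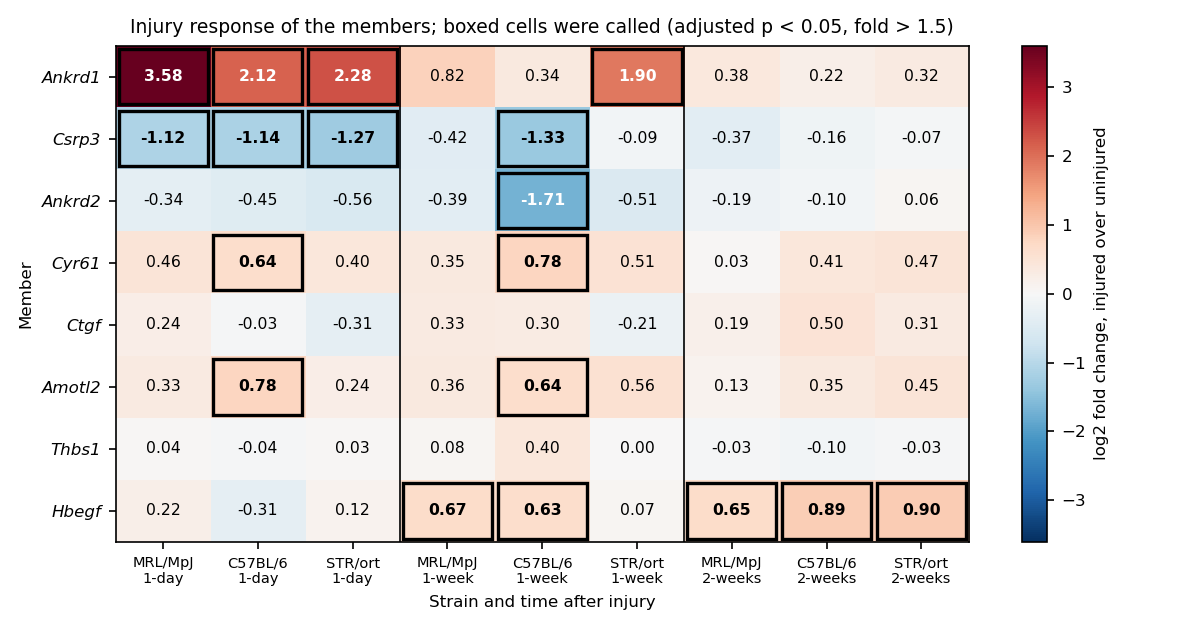
Log2 fold change of injured over uninjured contralateral joints for the 8 members (vertical axis) in each strain and time (horizontal axis), with colour from blue (lower) to red (higher) and boxes around the called cells. Ankrd1 ran from 2.12 to 3.58 at 1-day while Csrp3 ran from -1.27 to -1.12, and the called cells of 2-weeks were all in Hbegf.

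The largest injury difference of any member was that of Ankrd1 at 1-day. Ankrd1 (chr19:36111965-36119844, GRCm38.p6) encodes cardiac ankyrin repeat protein, which sits on titin in the sarcomere and is raised in stretched, denervated or wounded muscle and in wound fibroblasts and endothelium. In MRL/MpJ the 5 injured joints held 151, 525, 305, 284 and 571 CPM and the 5 uninjured joints 47.3, 44.98, 27.1, 18.6 and 19.2 CPM. In STR/ort the injured joints held 287, 133, 171, 113 and 131 CPM beside 41.1, 39.6, 26.7, 39.5 and 23.7 CPM, and in C57BL/6 61.8, 23.6, 107, 117 and 37.04 CPM beside 27.5, 15.8, 16.3, 9.896 and 12.5 CPM. Injured joints lay above every uninjured joint in MRL/MpJ and STR/ort, while in C57BL/6 the lowest injured joint, at 23.6 CPM, was below the highest uninjured joint, at 27.5 CPM. The log2 fold change was 3.58 ± 0.40 (SE, adjusted p 3.41e-07) in MRL/MpJ, 2.12 ± 0.40 (SE, adjusted p 0.000289) in C57BL/6 and 2.28 ± 0.38 (SE, adjusted p 0.000103) in STR/ort, and the gene rose in all 3.

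By 1-week Ankrd1 was called in STR/ort alone. The STR/ort injured joints held 96.6, 84.1, 46.7, 58.6 and 28.4 CPM and the uninjured joints 20.98, 16.7, 11.2 and 18.8 CPM, without overlap, a log2 fold change of 1.90 ± 0.35 (SE, adjusted p 0.000226). In MRL/MpJ the injured joints at 1-week, 31.4, 28.4, 47.9, 29.8 and 24.7 CPM, also lay above the uninjured joints, 21.1, 22.5, 13.6 and 18.3 CPM, but the log2 fold change of 0.82 ± 0.35 (SE, adjusted p 0.246) was not called. That difference was called with the replicate number as a block (log2 fold change 0.89, edgeR adjusted p 0.0114), although in MRL/MpJ at 1-week the numbers are not shown to mark the same animals. In C57BL/6 the joints overlapped, with 27.2, 80.8, 30.1, 28.8 and 52.3 CPM injured and 30.4, 53.05, 43.6, 15.4 and 35.8 CPM uninjured. At 2-weeks Ankrd1 means were 25.2 ± 7.79 CPM injured and 19.2 ± 5.96 CPM uninjured in MRL/MpJ, 15.3 ± 3.19 and 13.2 ± 2.71 CPM in C57BL/6, and 27.5 ± 6.49 and 22.2 ± 7.08 CPM in STR/ort (mean ± SD, n = 5 each), and none of these pairs was called.

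Csrp3 moved the other way from Ankrd1 at 1-day in every strain. Csrp3 (chr7:48830398-48848051) encodes muscle LIM protein, a Z-disc protein of slow and cardiac muscle that takes part in stretch sensing. The injured joints of MRL/MpJ held 50.1, 46.5, 40.9, 34.5 and 32.4 CPM and the uninjured joints 92.3, 133, 82, 74.2 and 68.8 CPM. In C57BL/6 the values were 7.33, 3.34, 10.2, 11.01 and 6.25 CPM injured and 23.01, 17.9, 19.3, 13.8 and 12.3 CPM uninjured, and in STR/ort 25.03, 21.5, 16.9, 19.2 and 33.7 and 57.2, 45.97, 37.5, 106 and 29.01 CPM. Injured joints lay below every uninjured joint in MRL/MpJ and C57BL/6, and in STR/ort only the injured library numbered 5, at 33.7 CPM, passed the lowest uninjured library, at 29.0 CPM. The log2 fold changes were -1.12 ± 0.25 (SE, adjusted p 0.00625), -1.14 ± 0.32 (SE, adjusted p 0.0104) and -1.27 ± 0.26 (SE, adjusted p 0.00143) in MRL/MpJ, C57BL/6 and STR/ort. At 1-week Csrp3 was called lower in injured than in uninjured joints of C57BL/6, with 16.1, 38.1, 15.5, 23.5 and 55.2 CPM injured and 67.5, 142, 55.3, 61.8 and 58.7 CPM uninjured, a log2 fold change of -1.33 ± 0.36 (SE, adjusted p 0.0119). That call was lost without the uninjured library numbered 2, which held 142 CPM, and with 2 factors taken out by RUVg, which estimates unwanted variation from 25 housekeeping genes (log2 fold change -0.94, edgeR adjusted p 0.112). The injured mean of 29.7 ± 16.9 CPM (n = 5) stood beside 25.2 ± 4.94 CPM at 0-day (n = 4), while the uninjured mean was 77 ± 36.4 CPM (n = 5). Log2 fold changes of the other 2 strains at 1-week were -0.42 and -0.09, and those of 2-weeks ran from -0.37 to -0.07.

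Ankrd2 (chr19:42035917-42045111) encodes the slow fibre relative of Ankrd1, which shuttles between the sarcomere and the nucleus in stretched muscle. It was lower in the means of injured joints at 1-day in all strains, with log2 fold changes of -0.34, -0.45 and -0.56, and none was called. At 1-week it was called lower in injured than in uninjured joints of C57BL/6, where the injured joints held 12.5, 22.1, 17.6, 23.1 and 34.97 CPM and the uninjured joints 71.8, 124, 62.97, 54.98 and 56.1 CPM without overlap, a log2 fold change of -1.71 ± 0.33 (SE, adjusted p 0.000517). The uninjured C57BL/6 joints of 1-week were the highest group for Ankrd2 in the series, at 74.05 ± 28.9 CPM (n = 5), beside 22.03 ± 8.36 CPM injured (n = 5), 20.8 ± 4.97 CPM at 0-day (n = 4) and 15.3 ± 4.44 CPM in uninjured joints at 1-day (n = 5). At 2-weeks its log2 fold changes ran from -0.19 to 0.06.

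Muscle markers differed between the same joints. At 1-day 9 of 12 fast muscle markers were called lower in injured joints of STR/ort, where their summed level was 19320 to 49950 CPM injured and 36680 to 63030 CPM uninjured, while none was called in MRL/MpJ and 1 was called lower and 1 higher in C57BL/6. Of 6 slow muscle markers, none was called at 1-day in any strain, 6 were lower in C57BL/6 at 1-week (79.7 to 189 CPM injured, 292 to 828 CPM uninjured) and 4 were lower in STR/ort at 1-week (82.4 to 275 and 144 to 781 CPM). Of 6 markers of regenerating muscle (embryonic myosins, Myog, Myod1 and acetylcholine receptor subunits), 1, 4 and 2 were called higher at 1-day in MRL/MpJ, C57BL/6 and STR/ort, and 5 at 1-week in STR/ort, at 46.4 to 102 CPM injured and 27.5 to 44.5 CPM uninjured. Chrng of this list had 0 counts in the uninjured STR/ort joints of 1-day and the uninjured MRL/MpJ joints of 2-weeks. The part of these markers in the differences of Ankrd1, Ankrd2 and Csrp3 was not tested.

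**Figure D2:**
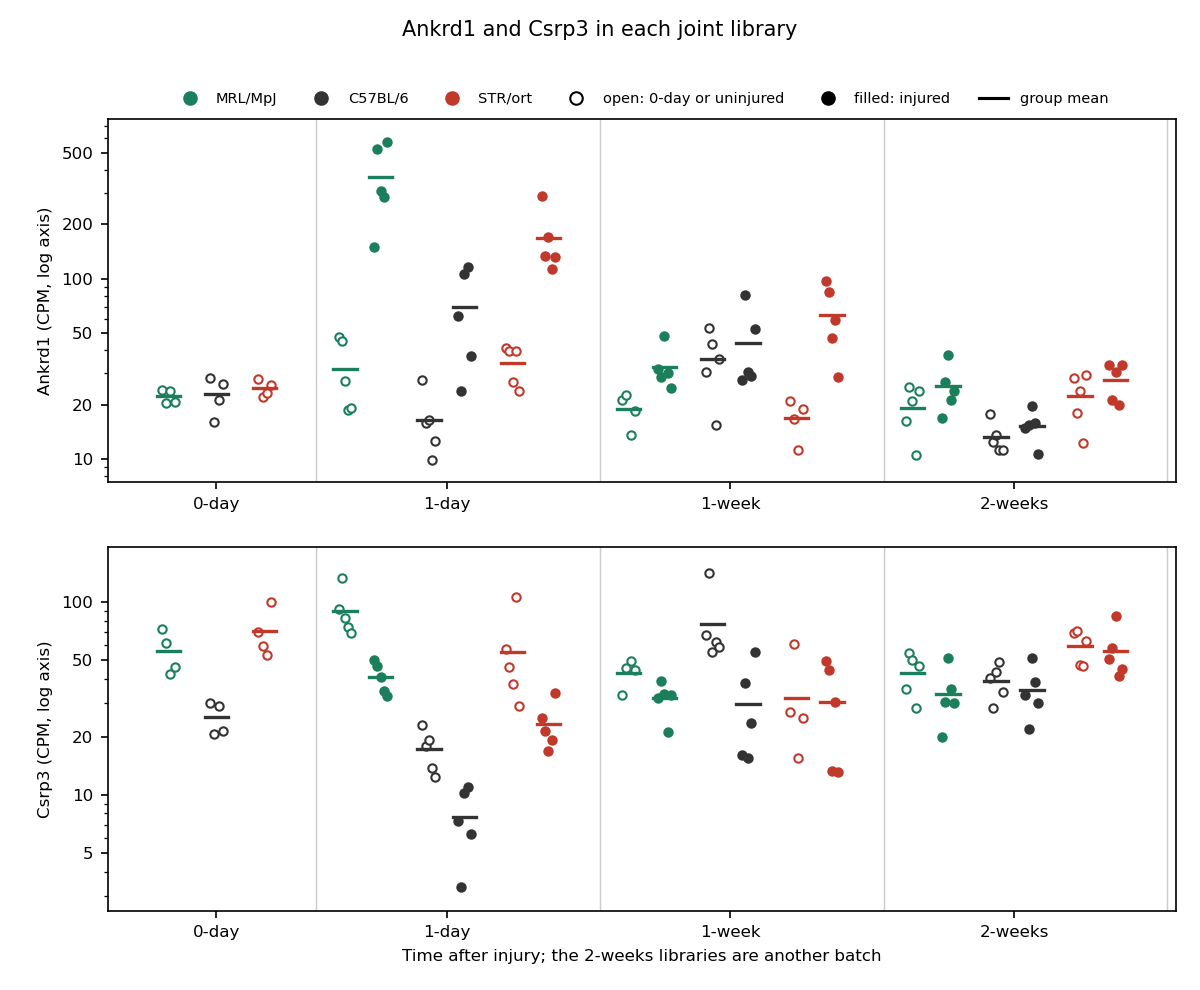
CPM of Ankrd1 and Csrp3 (log axes) in each of the 100 libraries by time and strain, with open points for 0-day or uninjured joints, filled points for injured joints and bars for group means. At 1-day the injured joints of MRL/MpJ reached 151 to 571 CPM of Ankrd1 beside 18.6 to 47.3 CPM uninjured, and Csrp3 of the same joints was 32.4 to 50.1 CPM beside 68.8 to 133 CPM.

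Cyr61 and Ctgf, the CCN matrix genes that head most lists of YAP targets, differed by less than 2-fold between injured and uninjured joints. Cyr61 (chr3:145646971-145649985), which binds integrins and is raised within an hour of stretch or serum, was called in C57BL/6 only. At 1-day C57BL/6 injured joints held 57.3, 43.2, 58.7, 78.3 and 57.3 CPM and uninjured joints 39.6, 44.5, 36.5, 28.8 and 40.4 CPM, with 1 injured joint inside the uninjured range, a log2 fold change of 0.64 ± 0.19 (SE, adjusted p 0.0167). At 1-week they held 35.8, 40.3, 36.4, 37.9 and 52.3 CPM and 18.9, 22.4, 29.9, 24.9 and 23.5 CPM without overlap, a log2 fold change of 0.78 ± 0.16 (SE, adjusted p 0.000751). The 1-day call was lost when libraries were scaled by the 25 housekeeping genes and without either C57BL/6 library numbered 4. The log2 fold changes of Cyr61 in MRL/MpJ and STR/ort at 1-day and 1-week ran from 0.35 to 0.51, and that of STR/ort at 1-week passed the p threshold (adjusted p 0.0199) at under 1.5-fold. Immediate early genes were called in 1 of 11 in C57BL/6 at 1-day and in none at 1-week. Fibroblast markers were called higher in the same joints, 3 of 5 at 1-day (summed level 9418 to 14690 CPM injured, 4977 to 6047 CPM uninjured) and 5 of 5 at 1-week (9687 to 13120 and 2695 to 3923 CPM), and their part in the Cyr61 difference was not tested.

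Ctgf (chr10:24595442-24598683), a matrix protein of cartilage, bone and scar tissue, was not called between injured and uninjured joints anywhere. Its largest difference was in C57BL/6 at 2-weeks, where injured joints held 167, 143, 167, 221 and 139 CPM and uninjured joints 99.4, 107, 132, 135 and 119 CPM without overlap, a log2 fold change of 0.50 ± 0.14 (SE, adjusted p 0.0222) that was under 1.5-fold. In STR/ort the means lay the other way at 1-day, with a log2 fold change of -0.31 ± 0.13 (SE, adjusted p 0.143), and at 1-week, with -0.21 ± 0.13 (SE, adjusted p 0.256), and neither passed. Thbs1 (chr2:118111876-118127133), which activates latent TGF-beta and limits vessel growth, had the smallest ratio of highest to lowest group mean of all members, 1.64, from 269 ± 26.2 CPM to 441 ± 36.97 CPM (n = 5 each) over the 21 group means. Its injury differences ran from -0.10 to 0.40 on the log2 scale. The highest, in C57BL/6 at 1-week, passed the p threshold (adjusted p 0.0391) at under 1.5-fold and held 1 injured joint at 542 CPM beside 322 to 330.4 CPM in the other 4 and 242 to 325 CPM uninjured. Ctgf and Thbs1 each overlap an annotated antisense transcript (Gm15270 and Gm29233), and the sources used here do not say whether reads were counted by strand.

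Amotl2 (chr9:102717091-102733418), both a target of YAP and a brake on it, was called higher in C57BL/6 at 1-day and 1-week. At 1-day the injured joints held 56.2, 44.5, 47.03, 67.3 and 56.4 CPM and the uninjured joints 30.8, 38.6, 29.3, 26.8 and 33.1 CPM, and at 1-week 35.6, 34.3, 31.2, 31.7 and 38.1 and 20.9, 20.6, 19.9, 25.3 and 24.6 CPM, without overlap at either time. The log2 fold changes were 0.78 ± 0.13 (SE, adjusted p 4.85e-05) and 0.64 ± 0.10 (SE, adjusted p 1.71e-05), and the 1-week call was lost with 1 RUVg factor taken out (0.57, under 1.5-fold). In STR/ort the differences at 1-week (0.56 ± 0.10 SE, adjusted p 0.000166) and 2-weeks (0.45 ± 0.09 SE, adjusted p 0.000576), and in C57BL/6 at 2-weeks (0.35 ± 0.09 SE, adjusted p 0.0182) and MRL/MpJ at 1-week (0.36 ± 0.10 SE, adjusted p 0.034), passed the p threshold at under 1.5-fold. The fibroblast markers called higher in C57BL/6 at 1-day and 1-week are those given beside Cyr61, macrophage markers were called higher in 2 of 5 at 1-day (705 to 862 CPM injured and 499 to 569 CPM uninjured), and the part of both in the Amotl2 difference was not tested. The injured C57BL/6 joints of 1-week had means near those of 0-day, in Amotl2 34.2 ± 2.85 beside 33.05 ± 3.05 CPM, in Cyr61 40.5 ± 6.82 beside 43.5 ± 6.83 CPM and in Hbegf 25.7 ± 6.19 beside 25.4 ± 3.22 CPM (n = 5 and 4), whereas the uninjured joints were called lower than 0-day in all 3 genes. Injured joints were not tested against 0-day. All 9 log2 fold changes of Amotl2 were above 0, from 0.13 to 0.78.

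Hbegf was the member called most often after injury, late and not at 1-day. Its precursor is anchored in the membrane and is cut to release a ligand that drives migration and growth through the EGF receptor. The gene lies at chr18:36504927-36515805. At 2-weeks the MRL/MpJ injured joints held 21.2, 25.1, 19.1, 18.04 and 22.8 CPM and the uninjured joints 12.1, 15.4, 14.6, 10.97 and 14.1 CPM. In C57BL/6 they held 30.9, 26.01, 26.9, 33.3 and 23.4 and 12.1, 14.1, 19.1, 14.8 and 15.7 CPM, and in STR/ort 57.1, 54.1, 51.04, 46.6 and 65.7 and 24.3, 30.1, 28.7, 35.3 and 28.9 CPM. No injured joint overlapped an uninjured joint of its strain, and Hbegf rose in all 3, by log2 fold changes of 0.65 ± 0.13 (SE, adjusted p 0.00212), 0.89 ± 0.12 (SE, adjusted p 8.18e-06) and 0.90 ± 0.11 (SE, adjusted p 4.8e-07). The MRL/MpJ call was kept in 8 of 10 fits that left out 1 library, and lost without the injured library numbered 2 or the uninjured library numbered 4 (log2 fold change 0.58 each, under 1.5-fold).

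At 1-week Hbegf was called higher in MRL/MpJ, with 30.5, 27.99, 32.5, 29.8 and 27.3 CPM injured and 17.9, 18.99, 22.3 and 17.01 CPM uninjured and a log2 fold change of 0.67 ± 0.20 (SE, adjusted p 0.0452), and in C57BL/6, with a log2 fold change of 0.63 ± 0.19 (SE, adjusted p 0.0251). The MRL/MpJ call was lost whichever of its 9 libraries was left out (highest adjusted p 0.134), and the C57BL/6 call was kept in 6 of 10 such fits. In STR/ort at 1-week both joints were high, at 82.2, 81.9, 81.7, 117 and 107 CPM injured and 84.4, 134, 49.2 and 89.4 CPM uninjured, and the difference was not called (log2 fold change 0.07 ± 0.18 SE, adjusted p 0.812, interval -0.27 to 0.42). Fibroblast markers (Prg4, Pdgfra, Dcn, Thy1 and Col3a1) were called higher with injury in 5 of 5 in MRL/MpJ and C57BL/6 and 2 of 5 in STR/ort at 1-week, and in 4 of 5 in every strain at 2-weeks. At 2-weeks their summed level was 2779 to 6293 CPM injured and 1904 to 2103 CPM uninjured in MRL/MpJ, 5244 to 7907 and 2163 to 2527 CPM in C57BL/6, and 10250 to 14810 and 3590 to 6346 CPM in STR/ort. Their part in the Hbegf difference was not tested.

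**Figure D3:**
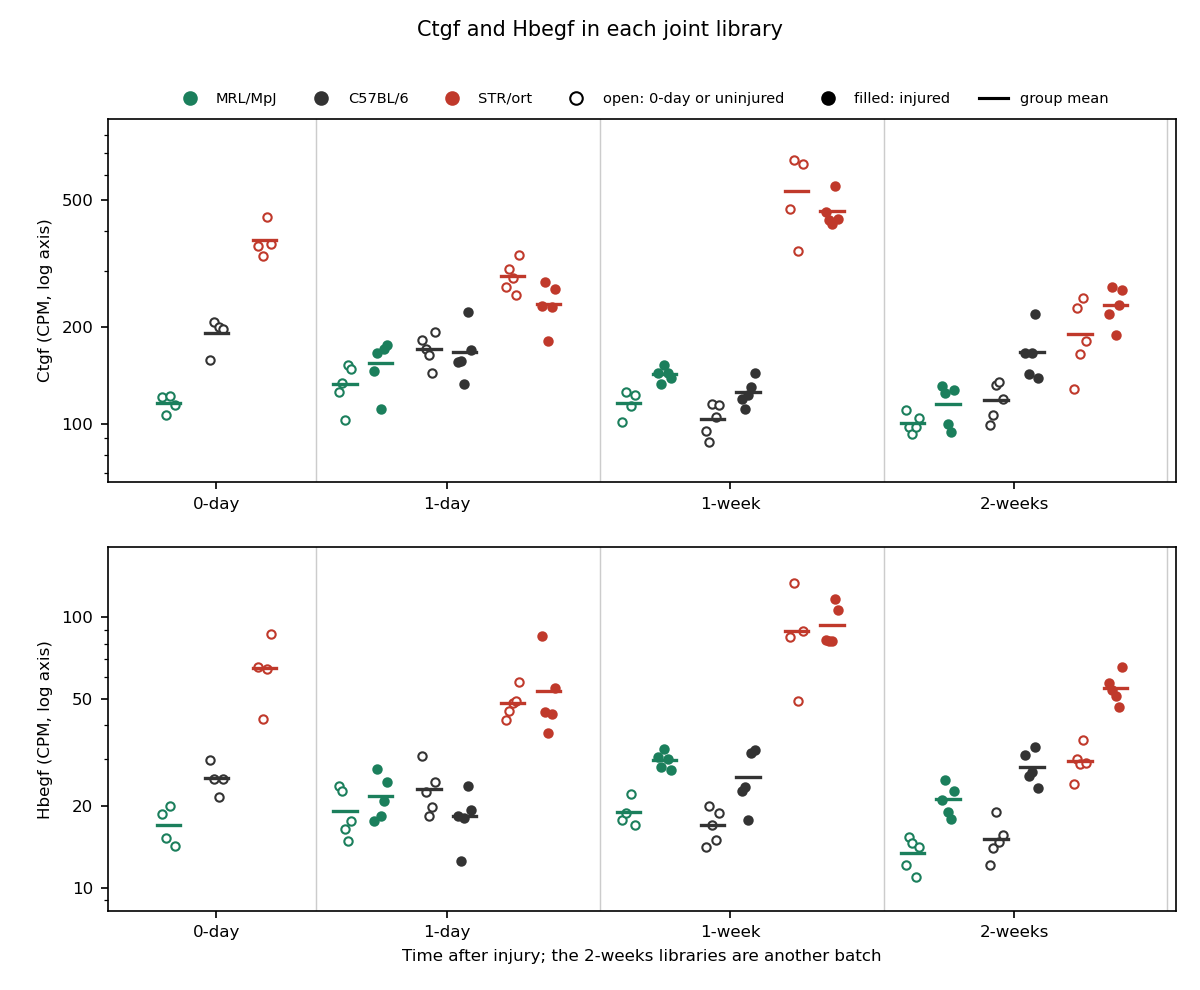
CPM of Ctgf and Hbegf (log axes) in each of the 100 libraries by time and strain, with open points for 0-day or uninjured joints, filled points for injured joints and bars for group means. STR/ort lies above the other strains at 0-day and 1-week in both genes, and at 2-weeks the filled points of Hbegf lie above the open points of the same strain.

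Whether the injury response of a member differed between strains was tested as an interaction at each time. None of the 72 interaction tests was called by edgeR, beside 0.557% over all genes, 0.162% higher and 0.395% lower (0.162%, 2.66% and 0.318% at 1-day, 0.884%, 0.491% and 0% at 1-week and 0.451%, 0.0462% and 0% at 2-weeks, for STR/ort minus MRL/MpJ, STR/ort minus C57BL/6 and C57BL/6 minus MRL/MpJ), although 16 had an unadjusted p under 0.05, and DESeq2 called none with 16 under 0.05. The response of Ankrd1 at 1-day in C57BL/6 minus that in MRL/MpJ was -1.46 on the log2 scale (interval -2.53 to -0.39, adjusted p 0.269) and in STR/ort minus MRL/MpJ -1.30 (interval -2.33 to -0.27, adjusted p 0.594). At 1-week the response of Ankrd1 in STR/ort exceeded that in C57BL/6 by 1.56 (interval 0.65 to 2.47, adjusted p 0.125), and that of Ankrd2 in C57BL/6 minus MRL/MpJ was -1.32 (interval -2.29 to -0.35, adjusted p 1). The 3.58 of MRL/MpJ and the 2.12 of C57BL/6 are therefore not shown to differ. With the replicate number as a block, 4 interactions were called, all at 1-week: Ankrd1 in STR/ort minus MRL/MpJ (1.16, adjusted p 0.0372) and minus C57BL/6 (1.75, adjusted p 0.00167), and Ankrd2 (1.5, adjusted p 0.0278) and Csrp3 (1.51, adjusted p 0.0172) in STR/ort minus C57BL/6. Same-numbered joints of 1-week are not tied to the same animal in the labels. The Amotl2 response at 1-day in STR/ort minus C57BL/6 was -0.55 (adjusted p 0.0957), and without the injured STR/ort library numbered 5, whose immediate early genes stood apart, it was -0.72 (adjusted p 0.0036) and called.

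Before injury, STR/ort differed from the other strains in most members. The question here was how the strains compare in joints of mice that had not been loaded. Of 24 tests at 0-day, 13 were called, 12 higher and 1 lower in the first-named strain, which is 54.2% beside 14.8% over all genes (8.6% higher and 6.23% lower). With 2 RUVg factors taken out, 8 were called, 8 higher and 0 lower. Against MRL/MpJ, STR/ort was called higher in Ankrd2, Ctgf, Cyr61, Amotl2 and Hbegf (5 of 8, beside 14.8% of all genes), and against C57BL/6 in Ankrd2, Ctgf, Cyr61, Csrp3 and Hbegf (5 of 8, beside 13.8%). C57BL/6 was higher than MRL/MpJ in Ctgf and Hbegf and lower in Csrp3 (3 of 8, beside 15.9%). The 3 comparisons share their groups, so they are not independent of each other.

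Cyr61 showed the widest strain difference of any member. The STR/ort libraries of 0-day held 410.2, 415, 239.9 and 193 CPM, the MRL/MpJ libraries 30.1, 27.7, 33.2 and 29.8 CPM and the C57BL/6 libraries 37.02, 51.5, 46.8 and 38.8 CPM, with no overlap between any strains. STR/ort was higher than MRL/MpJ by a log2 fold change of 3.39 ± 0.21 (SE, adjusted p 7.01e-10) and than C57BL/6 by 2.81 ± 0.20 (SE, adjusted p 5.51e-09). The immediate early genes were higher in the same 4 libraries, 11 of 11 called against each strain, and the STR/ort libraries with the most Cyr61 (410.2 and 415 CPM) were the ones with the highest immediate early sums. Over all 100 libraries the log2 CPM of Cyr61 went with the log2 immediate early sum with a Pearson r of 0.84, 0.88 in the 70 libraries of batch 1 and 0.70 after the group means were taken out. At 1-day the STR/ort libraries numbered 5 had the highest Cyr61 of their groups as well, 122 CPM injured and 88.3 CPM uninjured. The part of the immediate early genes in the Cyr61 difference was not tested.

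**Figure D4:**
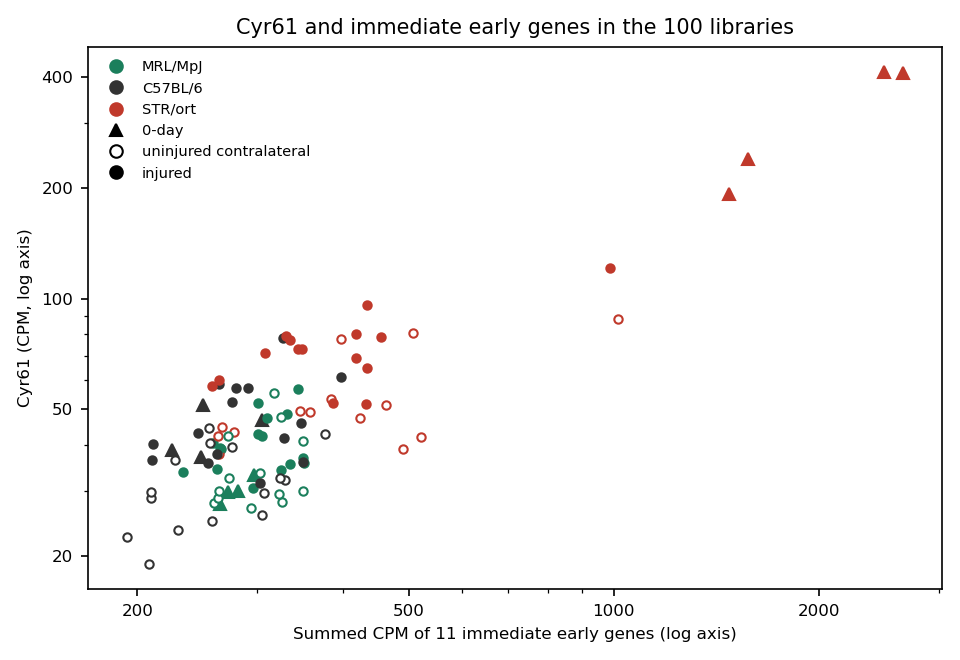
CPM of Cyr61 against the summed CPM of 11 immediate early genes (both log axes) in the 100 libraries, with colour for the strain, triangles for 0-day, open circles for uninjured contralateral and filled circles for injured joints. The 4 STR/ort libraries of 0-day lie at the top right, at 193 to 415 CPM of Cyr61, and the STR/ort libraries numbered 5 of 1-day lie between them and the rest on the horizontal axis.

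Ctgf was ordered by strain at 0-day without overlap, with 122, 106, 122 and 115 CPM in MRL/MpJ, 159, 208, 201 and 198 CPM in C57BL/6 and 360.3, 336, 443 and 364 CPM in STR/ort. STR/ort was higher than MRL/MpJ by a log2 fold change of 1.70 ± 0.10 (SE, adjusted p 3.73e-10) and than C57BL/6 by 0.93 ± 0.10 (SE, adjusted p 9.25e-07), and C57BL/6 was higher than MRL/MpJ by 0.77 ± 0.10 (SE, adjusted p 8.15e-06). Hbegf had the same order, with 18.8, 15.2, 20.1 and 14.3 CPM, 29.6, 25.2, 21.7 and 25.2 CPM and 65.8, 42.3, 64.4 and 86.8 CPM, also without overlap. Its log2 fold changes were 1.92 ± 0.17 (SE, adjusted p 8.02e-08), 1.31 ± 0.16 (SE, adjusted p 4.54e-06) and 0.61 ± 0.18 (SE, adjusted p 0.011) in the same 3 comparisons. The call of C57BL/6 over MRL/MpJ was kept in 5 of the 8 fits that left out 1 library. Fibroblast markers had that order of medians too, with sums of 2691 to 3294 CPM in MRL/MpJ, 5178 to 8258 CPM in C57BL/6 and 6294 to 10780 CPM in STR/ort. The 4 STR/ort libraries are those whose immediate early genes stood apart (1476 to 2662 CPM beside 225 to 304 CPM in the other strains), and over the 100 libraries the log2 immediate early sum had a Pearson r of 0.47 with Ctgf and 0.46 with Hbegf. After group means were taken out these were 0.23 and 0.19. Of 5 heat shock genes, 4 were higher by the same rule in STR/ort against MRL/MpJ and 5 against C57BL/6, with sums of 968.6 to 1662 CPM in STR/ort, 733 to 950.2 CPM in MRL/MpJ and 649.9 to 720.5 CPM in C57BL/6. The part of these markers in Ctgf and Hbegf was not tested.

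Amotl2 was also lowest in MRL/MpJ at 0-day, at 25.96, 24.5, 22.1 and 25.5 CPM, beside 36.2, 28.9, 32.96 and 34.1 CPM in C57BL/6 and 37.6, 39.9, 40.2 and 38.4 CPM in STR/ort, and only STR/ort over MRL/MpJ was called (log2 fold change 0.67 ± 0.08 SE, adjusted p 6.11e-06). Immediate early genes stood apart in these STR/ort libraries. Over all libraries Amotl2 had a Pearson r of 0.36 with their sum, 0.49 after group means were taken out, and 0.67 with the fibroblast sum. The part of these markers in Amotl2 was not tested. Ankrd2 held 40.8, 52.96, 49.2 and 81.6 CPM in STR/ort, above every library of MRL/MpJ (35.4, 31.5, 18.6 and 20.5 CPM) and C57BL/6 (23.3, 18.4, 26.4 and 15.2 CPM), by log2 fold changes of 1.04 ± 0.21 (SE, adjusted p 0.000774) and 1.38 ± 0.21 (SE, adjusted p 5.75e-05). Csrp3 was lowest in C57BL/6, at 30.1, 20.6, 28.9 and 21.4 CPM, beside 72.4, 61.1, 42.2 and 45.7 CPM in MRL/MpJ and 69.9, 59.4, 52.9 and 100 CPM in STR/ort. C57BL/6 was lower than MRL/MpJ at a log2 fold change of -1.11 ± 0.19 (SE, adjusted p 0.000176), a direction that turned (0.34) with 2 RUVg factors removed, and STR/ort was higher than C57BL/6 by 1.44 ± 0.19 (SE, adjusted p 1.25e-05). All 6 slow muscle markers were higher in STR/ort than in either strain, with sums of 609 to 1452 CPM beside 134 to 387 CPM in MRL/MpJ and 82.5 to 141 CPM in C57BL/6. The fast muscle sum was 41280 to 65990 CPM in C57BL/6, 88140 to 108400 CPM in MRL/MpJ and 91530 to 106300 CPM in STR/ort. The part of both marker lists in Ankrd2 and Csrp3 was not tested. Ankrd1, the member that moved most with injury, was called in no strain comparison at 0-day, with 22.2 ± 1.93, 22.8 ± 5.41 and 24.6 ± 2.56 CPM (n = 4 each) and log2 intervals within -0.20 to 0.43. Thbs1 means were 315 ± 13.2, 350.3 ± 10.9 and 378 ± 38.9 CPM in MRL/MpJ, C57BL/6 and STR/ort, and none of its comparisons was called, with STR/ort over MRL/MpJ past the p threshold (0.27, adjusted p 0.0123) at under 1.5-fold.

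**Figure D5:**
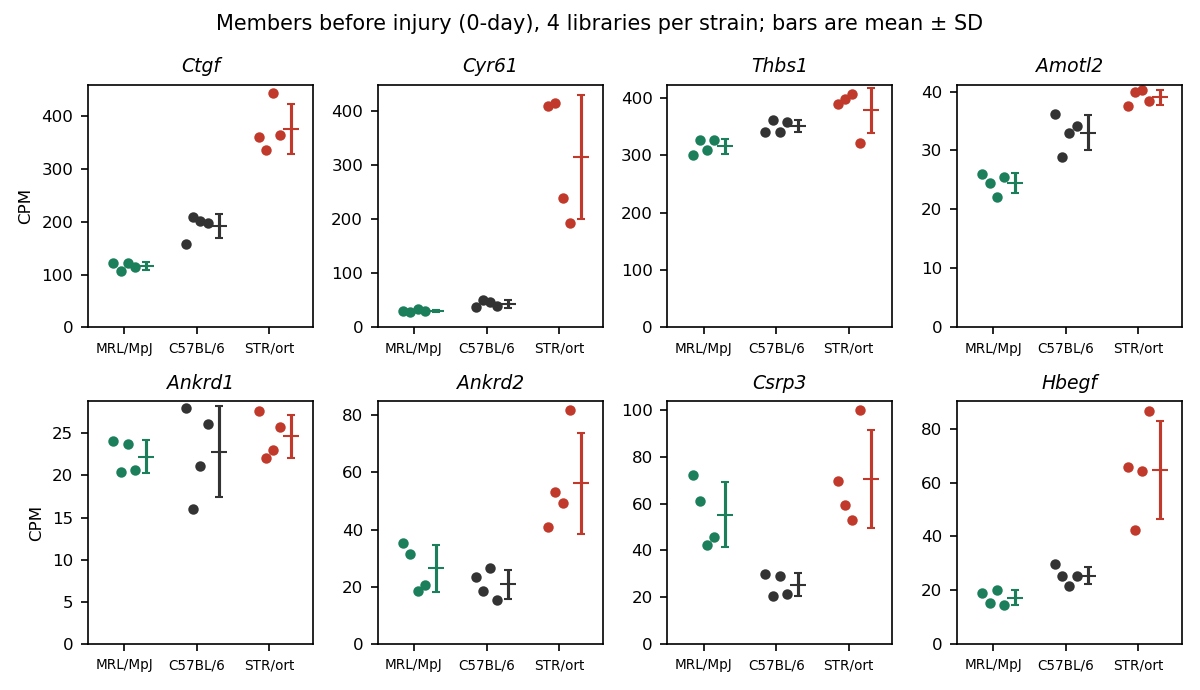
CPM of each member at 0-day in the 4 libraries of each strain (points), with mean ± SD beside them and axes that start at 0. Cyr61, Ctgf and Hbegf lie without overlap between the strains, while Ankrd1 lies between 16 and 28.1 CPM in all 12 libraries.

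After injury STR/ort was called higher in Ctgf and Hbegf in both joints. Within injured joints 32 of 72 strain tests of the members were called, 24 higher and 8 lower (44.4%, beside 17.1% over all genes, 9.1% higher and 7.98% lower), and within uninjured contralateral joints 32 of 72, 25 higher and 7 lower (44.4%, beside 15.2%, 8.67% higher and 6.49% lower). In injured joints of STR/ort against MRL/MpJ, STR/ort against C57BL/6 and C57BL/6 against MRL/MpJ, 6, 5 and 4 of 8 were called at 1-day (beside 20.3%, 12.4% and 16.3% of all genes), 4, 3 and 0 at 1-week (29.5%, 25.1% and 9.47%) and 5, 3 and 2 at 2-weeks (18.9%, 10.4% and 11.5%). In uninjured joints, 5, 6 and 3 were called at 1-day (22.6%, 10.5% and 14.8%), 3, 7 and 1 at 1-week (24.4%, 22.2% and 8.53%) and 3, 3 and 1 at 2-weeks (13.8%, 9.78% and 9.83%) in the same order. With 1 RUVg factor removed the splits were 25 higher and 4 lower in injured joints and 27 higher and 2 lower in uninjured joints. In uninjured joints 29 were called, 24 higher and 5 lower, without the STR/ort library numbered 5 of 1-day and without both STR/ort libraries of that number, whose immediate early genes stood apart. The calls lost in both fits were STR/ort over MRL/MpJ in Ankrd2 (-0.56) and Csrp3 (-0.5) and STR/ort over C57BL/6 in Cyr61 (0.53), all at 1-day. In uninjured joints at 1-week Ctgf held 468, 666, 348 and 651 CPM in STR/ort, 101, 126, 114 and 123 CPM in MRL/MpJ and 94.8, 87.6, 115, 105 and 114 CPM in C57BL/6. STR/ort was higher by a log2 fold change of 2.22 ± 0.14 (SE, adjusted p 3.3e-13) over MRL/MpJ and 2.38 ± 0.13 (SE, adjusted p 1.4e-14) over C57BL/6. Hbegf in the same joints was higher in STR/ort by 2.24 ± 0.20 (SE, adjusted p 5.35e-10) and 2.40 ± 0.19 (SE, adjusted p 3.25e-11). The fibroblast sum of these joints was 11200 to 29060 CPM in STR/ort, 2860 to 3446 CPM in MRL/MpJ and 2695 to 3923 CPM in C57BL/6. The cartilage sum (4014 to 4827 CPM in STR/ort, 1309 to 2294 CPM in MRL/MpJ and 966 to 2778 CPM in C57BL/6) and the bone sum (2583 to 3758, 1215 to 1602 and 1235 to 1757 CPM) were also higher in STR/ort without overlap, and the part of these markers in both genes was not tested. Hbegf was called higher in STR/ort than in either strain in 12 of 12 tests after injury, over both joints and 3 times, with log2 fold changes from 0.96 to 2.40, and Ctgf in 10 of 12, all but STR/ort over C57BL/6 in injured joints at 1-day and 2-weeks, where it was 0.49 each. Cyr61 was called higher in STR/ort in 7 of 12, with log2 fold changes of 0.06 to 1.16, the lowest in uninjured joints over MRL/MpJ at 2-weeks.

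The muscle genes differed between strains after injury as well. In injured joints at 1-day Ankrd1 was lower in C57BL/6 than in MRL/MpJ at a log2 fold change of -2.39 ± 0.37 (SE, adjusted p 5.18e-06), and STR/ort was lower than MRL/MpJ at -1.13 ± 0.35 (SE, adjusted p 0.00925), a direction that turned with RUVg factors (0.57). Csrp3 and Ankrd2 at 1-day were lower in C57BL/6 than in MRL/MpJ in both joints, at log2 fold changes of -2.38 and -2.28 injured and -2.36 and -2.17 uninjured, all called. STR/ort was also below MRL/MpJ in both genes and both joints at 1-day, at log2 fold changes of -0.94 to -0.66, and these 4 directions turned with RUVg factors (0.11 to 0.32). The fast muscle sum of STR/ort at 1-day was below that of MRL/MpJ without overlap, at 19320 to 49950 CPM against 52880 to 93270 CPM injured and 36680 to 63030 CPM against 75150 to 97830 CPM uninjured, and in C57BL/6 it was 38980 to 62410 and 43060 to 101500 CPM, and its part was not tested. At 1-week the uninjured C57BL/6 joints were above those of STR/ort in Ankrd2 (STR/ort over C57BL/6 -1.81 ± 0.37 SE, adjusted p 0.000201) and Csrp3 (-1.27 ± 0.39 SE, adjusted p 0.00922). In both groups the library numbered 2 lay far from the others in Ankrd2. It held 48.48 CPM beside 10.19 to 13.69 CPM in STR/ort and 124.3 CPM beside 54.98 to 71.82 CPM in C57BL/6. Amotl2 in injured joints at 1-day was highest in C57BL/6, above MRL/MpJ by 1.05 ± 0.13 (SE, adjusted p 1.59e-07) and above STR/ort, for which STR/ort over C57BL/6 was -0.59 ± 0.13 (SE, adjusted p 0.000684). Thbs1 was called in none of the 18 strain tests of injured and uninjured joints, whose log2 fold changes ran from -0.31 to 0.58, although 7 had an adjusted p below 0.05 at under 1.5-fold.

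Uninjured contralateral joints of batch 1 were set against the 0-day joints of the same strain to see whether the other knee had changed. Of 48 tests, 10 were called, 2 higher and 8 lower (20.8%, beside 4.94% over all genes, 1.75% higher and 3.19% lower), and the 2 times share their 0-day libraries. In MRL/MpJ none was called at 1-day or 1-week by edgeR, beside 0.0867% and 0% of all genes, and in C57BL/6 none at 1-day, beside 0.0635%. Unadjusted p-values under 0.05 were 2, 1 and 1 in these 3 comparisons, and DESeq2 called 1, 0 and 0. In C57BL/6 at 1-week 6 of 8 were called, beside 5.69%: Ankrd2 (1.80 ± 0.34 SE, adjusted p 0.000235) and Csrp3 (1.57 ± 0.32 SE, adjusted p 0.000622) were higher and Ctgf (-0.92 ± 0.13 SE, adjusted p 6.23e-06), Cyr61 (-0.88 ± 0.21 SE, adjusted p 0.00342), Amotl2 (-0.59 ± 0.09 SE, adjusted p 2.38e-05) and Hbegf (-0.61 ± 0.20 SE, adjusted p 0.0343) lower than at 0-day on the log2 scale, and in each of these 6 genes the 5 joints of 1-week did not overlap the 4 of 0-day. Between the same joints the slow muscle sum of C57BL/6 was 82.5 to 141 CPM at 0-day and 292 to 828 CPM at 1-week, and the fibroblast sum was 5178 to 8258 CPM and 2695 to 3923 CPM. In STR/ort at 1-day 1 of 8 was called, beside 10%, namely Cyr61, lower at a log2 fold change of -2.34 ± 0.20 (SE, adjusted p 5.22e-11), and at 1-week 3 of 8, beside 13.8%: Cyr61 (-2.54 ± 0.22 SE, adjusted p 6.01e-11), Ankrd2 (-1.39 ± 0.36 SE, adjusted p 0.00233) and Csrp3 (-1.13 ± 0.33 SE, adjusted p 0.00772), all lower. In Ankrd2 the 1-week library numbered 2 held 48.48 CPM beside 10.19 to 13.69 CPM in the others. The slow muscle sum of STR/ort was 609 to 1452 CPM at 0-day and 144 to 781 CPM at 1-week, its fast muscle sum was 91530 to 106300 CPM and 32820 to 62330 CPM without overlap, and the part of these markers was not tested. The mice were also older at 1-week than at 0-day by the time since injury, and age and the injury of the other knee cannot be told apart. The Cyr61 values of STR/ort at 0-day are those of the libraries whose immediate early genes stood apart.

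The mRNA of YAP, TAZ, the TEAD factors and Hippo pathway genes was followed in the comparisons of injured with uninjured joints. Levels of mRNA do not show phosphorylation or entry into the nucleus, so the activity of YAP and TAZ was not measured. Yap1 was called in none of 9 injury comparisons, with log2 fold changes of 0.05 to 0.44 and group means of 49.6 to 90.8 CPM. Wwtr1, which encodes TAZ, rose in MRL/MpJ at 1-week (0.59 ± 0.11 SE, adjusted p 0.000812), in STR/ort at 1-week (0.80 ± 0.11, adjusted p 2.78e-06) and in STR/ort at 2-weeks (0.62 ± 0.09, adjusted p 7.99e-06), and in C57BL/6 it passed the p threshold at under 1.5-fold at 1-week (0.55, adjusted p 0.000374) and 2-weeks (0.51, adjusted p 0.000316). Tead3 rose at 1-week in C57BL/6 (0.83) and STR/ort (0.61) and Tead4 at 1-day in C57BL/6 (1.10), both at low levels of 1.30 to 11.3 CPM, while Tead1 and Tead2 were not called. Of the 31 Hippo pathway genes measured, 26 of 279 injury tests were called higher and 1 lower, beside 3.24% and 1.08% over all genes, with list medians of 0.04 to 0.35 on the log2 scale and medians over all genes of -0.03 to 0.01. Vgll3, a TEAD co-factor, rose in all 3 strains at 1-day (0.99, 2.01 and 0.95 in MRL/MpJ, C57BL/6 and STR/ort) and at 1-week (1.13, 1.43 and 1.5) and in C57BL/6 at 2-weeks (1.26), and Fat4, a giant cadherin upstream of the pathway, rose in all 3 at 1-week (0.64, 1.16 and 1.38). Of 18 further YAP and TAZ targets, 31 of 162 tests were called higher and none lower by edgeR, with list medians of 0.05 to 0.35. Among them Nt5e, which makes adenosine, rose in all 3 strains at 1-day (0.73, 0.73 and 0.86) and 1-week, Myof, a membrane repair protein, rose at 1-week (1.29, 1.26 and 0.96) and 2-weeks (0.63, 0.65 and 0.87), and Rbms3 rose at 1-week (0.67, 0.87 and 0.67). Of 5 fibroblast markers, 2, 3 and 0 were called higher at 1-day, 5, 5 and 2 at 1-week and 4 in each strain at 2-weeks in MRL/MpJ, C57BL/6 and STR/ort by edgeR. Their sums were 8963 to 10680 CPM injured beside 2860 to 3446 CPM uninjured in MRL/MpJ at 1-week and 10580 to 17330 beside 11540 to 18480 CPM in STR/ort at 1-day, and their part in the rises of these factors and targets was not tested.

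Relatives of the members were followed in the same injury comparisons. Over all genes 3.24% of these tests were called higher and 1.08% lower. In the CCN family 17 of 54 tests were called higher and 2 lower, and Wisp2 rose in all 3 strains at 1-day (0.79, 1.53 and 0.75 in MRL/MpJ, C57BL/6 and STR/ort), 1-week (1.09, 1.37 and 1.01) and 2-weeks (0.68, 0.92 and 1.39), and Nov at 1-week (1.69, 1.10 and 0.84) and 2-weeks (0.91, 1.09 and 0.86). Among thrombospondins and their receptors 27 of 63 were higher and 1 lower. Thbs2 rose at 1-week by 1.55, 1.87 and 2.52, from means of 84.7, 149 and 247 CPM uninjured to 243, 537 and 1421 CPM injured, and Thbs3 (1.81, 1.96 and 1.12) and Thbs4 (1.51, 1.13 and 1.24) rose with it, whereas Thbs1 ran from 0.00 to 0.40. At 2-weeks Thbs2 (0.71, 0.83 and 1.48), Thbs3 (1.19, 1.36 and 1.48) and Thbs4 (0.74, 1.07 and 0.95) rose as well, and at 1-day Thbs4 rose in MRL/MpJ (1.01) and C57BL/6 (1.04) and Thbs2 (1.19) and Thbs3 (0.81) in C57BL/6. Comp, the cartilage member of that family, rose in all 3 strains at 2-weeks (0.71, 1.03 and 0.98) and fell in STR/ort at 1-day (-0.60 ± 0.19 SE, adjusted p 0.0387). At 1-week it rose in MRL/MpJ (1.01) and C57BL/6 (0.98) and was not called in STR/ort (-0.07). In the family of the sarcomere members 14 of 54 tests were called higher and 5 lower, and Csrp2, the smooth muscle and fibroblast relative of Csrp3, rose in all 3 strains at 1-day (0.62, 1.78 and 0.70), 1-week (0.99, 1.46 and 2.32) and 2-weeks (0.59, 0.62 and 1.42). Among the EGF receptor genes (10 of 11 measured) 20 of 90 were higher and 1 lower, and Ereg, another ligand, rose in all 3 strains at 1-day (2.93, 2.33 and 2.82) and 1-week (3.98, 3.37 and 2.63) from low uninjured means of 0.0699 to 1.11 CPM. Areg, a further ligand, was also called in all 3 at 1-day, with injured means of 0.241, 0.152 and 0.482 CPM, but had no counts in uninjured joints of MRL/MpJ and C57BL/6 and 0.112 CPM in those of STR/ort, so no fold is given. The targets of SRF and MRTF, the other actin-sensing pathway, were called in 3 higher and 2 lower of 72 tests. All 5 calls were in STR/ort, where Acta2 (1.27), Tagln (0.61) and Cnn1 (1.04) were higher at 1-week and Tpm1 was lower at 1-day (-0.71) and 1-week (-0.72), Tagln, Cnn1 and the 1-week value of Tpm1 being named after their values were seen. The fast muscle sum of these joints was 19320 to 49950 CPM injured and 36680 to 63030 CPM uninjured at 1-day. At 1-week it was 17160 to 37540 and 32820 to 62330 CPM. Acta2, Tagln and Cnn1 are also in the list of smooth muscle and pericyte markers. The part of fast and smooth muscle in these calls was not tested. Fibroblast sums at 1-week were 8963 to 10680 CPM injured and 2860 to 3446 CPM uninjured in MRL/MpJ, 9687 to 13120 and 2695 to 3923 CPM in C57BL/6, and 25510 to 35980 and 11200 to 29060 CPM in STR/ort, and their part in the rises of the relatives was not tested. The family lists include the members themselves, and whether relatives and members differ was not tested.

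The members fell into groups by how their levels ran over the 100 libraries, which share strain, batch and tissue make-up. Ctgf and Hbegf ran closest together, with a Pearson r of 0.91 between their log2 CPM and 0.51 after group means were taken out, and both ran with the fibroblast sum (0.80 and 0.84). Ctgf also had an r of 0.72 with the cartilage sum, 0.68 with the bone sum and -0.72 with the sum of erythroid markers. For Hbegf these were 0.59, 0.53 and -0.72. Ankrd2 and Csrp3 had an r of 0.83, and 0.86 within groups. Each had an r of 0.59 with the slow muscle sum, which was 0.45 and 0.38 within groups. Within groups their r with the regenerating muscle sum was higher (0.57 and 0.56). Over all libraries their r with the macrophage sum was -0.53 and -0.68. Ankrd1 and Csrp3 had an r of -0.04 over all libraries but 0.57 within groups, so within a group joints with more Ankrd1 tended to hold more Csrp3, although injury moved them apart. Among 14416 other genes with a mean of at least 1 CPM, those most like Ankrd1 included Rrad (0.89) and Mustn1 (0.82), and those most like Cyr61 were Errfi1 (0.86), Egr2 (0.85) and Egr1 (0.85). Besides each other, Ctgf and Hbegf were nearest to Gfpt2 (0.90 each), with Chst2 (0.90) for Ctgf and Dcbld2 (0.90) for Hbegf. Besides each other, Ankrd2 was nearest to Klhl34 (0.74) and Fabp3 (0.73), and Csrp3 to Fhl1 (0.77) and Abra (0.73). Amotl2 was nearest to Prkcdbp (0.82), Mrc2 (0.80) and Fscn1 (0.80), and Thbs1 to Src (0.80), Vcl (0.76) and Med12l (0.75), which within batch 1 were 0.65, 0.59 and 0.61.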

How the data were processed

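The authors deposited a table of raw read counts per gene for poly(A)-selected TruSeq libraries. Per the labels' processing notes, reads were aligned to mm10 with TopHat2 2.0.11 and counted with featureCounts. The table held 17313 rows, of which 3 were identical repeats and were dropped, leaving 17310 genes, and the filter of at least 2 counts in 5 libraries removed 0. Total counts ran from 6182016 to 20986027. Of 190 pairs of libraries within groups, 0 were identical.

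Counts were tested with edgeR 4.0.16 (R 4.3.3) by the quasi-likelihood F test after TMM scaling, 1 fit per time point, and 1 fit of the 0-day joints with the uninjured joints of 1-day and 1-week for the comparison with 0-day. P-values were adjusted by Benjamini-Hochberg over 17310 genes, and a gene was called at an adjusted p below 0.05 and a fold above 1.5. The SE of an edgeR log2 fold change was taken as its absolute value divided by the square root of the F statistic. Intervals are normal intervals from that SE. They make no allowance for the finite degrees of freedom and so run narrow. CPM are counts scaled for TMM library size, and correlations use log2 CPM with a prior count of 2. The alternatives were RLE size factors, scaling by 25 housekeeping genes, RUVg with 1 or 2 factors, DESeq2 1.42.0, no filter, filterByExpr, the compared groups alone, the replicate number as a block and each library left out. The step was tested on simulated data.

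The 8 genes and the marker and pathway lists were chosen with earlier results of these data known. List genes were named when called in all 3 strains at a time, or otherwise when of the smallest adjusted p in a strain. Some further calls of genes so named, such as those of Comp at 1-week, were added after their values were seen. Replicate numbers pair the 2-weeks joints, which the labels tie to the same animals (correlations of paired deviations 0.183 to 0.271 in C57BL/6, 0.213 to 0.449 in STR/ort and -0.279 to 0.082 in MRL/MpJ). The labels name no animal at 1-day or 1-week, where same-numbered joints share only a number. Their correlations at 1-week, 0.162 to 0.37 in STR/ort and -0.035 to 0.431 in C57BL/6, do not show that they came from the same animals. 1 gene of the lists of genes most like a member is not reported here.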

Additional observations from a re-analysis of the deposited data

Results flagged for a closer look

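In 8 of 168 sets of a member's values in a group, 1 library lay far from the others of its group, and chance alone sets apart about 1 in 20 groups in this way. All 8 were the highest library of their group. In the uninjured C57BL/6 joints of 1-week, the library numbered 2 held 124.3 CPM of Ankrd2 (54.98 to 71.82 CPM in the others) and 141.7 CPM of Csrp3 (55.28 to 67.55 CPM), and its slow muscle sum was 828.3 CPM. The uninjured STR/ort library numbered 2 of 1-week held 48.48 CPM of Ankrd2 (10.19 to 13.69 CPM in the others), with a slow muscle sum of 780.6 CPM. In the injured C57BL/6 joints of 1-week, the library numbered 5 held 52.33 CPM of Cyr61 (35.75 to 40.33 CPM) and 542.3 CPM of Thbs1 (322 to 330.4 CPM).

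The injured MRL/MpJ library numbered 3 of 1-week held 47.88 CPM of Ankrd1 (24.67 to 31.35 CPM in the others). The uninjured MRL/MpJ library numbered 4 of 2-weeks held 527.8 CPM of Thbs1 (389 to 428.3 CPM). The injured STR/ort library numbered 5 of 1-day held 53.28 CPM of Amotl2 (27.93 to 34.94 CPM), and its immediate early genes stood apart at 986.4 CPM.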

How the results depend on the processing

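Of 105 calls of members, 72 were kept under every setting that used all libraries or left out both STR/ort libraries numbered 5 of 1-day, a setting added after the data were seen, and 66 were also kept whichever library was left out. RUVg with 2 factors lost the most, 27 calls, and took the 0-day strain calls from 13 to 8. All reversed directions came from RUVg. For STR/ort against MRL/MpJ at 1-day they were Ankrd1 (0.57 with 1 and with 2 factors), Ankrd2 (0.11 with both) and Csrp3 (0.18 with both) in injured joints, and Ankrd2 (0.28 and 0.27) and Csrp3 (0.32 and 0.29) in uninjured joints. Csrp3 in C57BL/6 against MRL/MpJ at 0-day became 0.34 with 2 factors. The group explained 82% of the first factor at 1-day and 86.2% at 1-week, where no direction reversed, and the cause of the reversals was not tested. Amotl2 in C57BL/6 at 1-week fell to 0.57 with 1 factor, and Csrp3 in C57BL/6 at 1-week was lost with 2. With each library left out, the injury calls ran from 17 to 20, those of strains at 0-day from 12 to 14, and the interaction calls from 0 to 2. The interaction calls were Amotl2 without the C57BL/6 uninjured library 2 or the STR/ort injured library 5 of 1-day, Ankrd1 without the C57BL/6 injured library 2, Ankrd2 without the STR/ort uninjured library 2, and Ctgf (2 calls) without the STR/ort uninjured library 3 of 1-week. Without both libraries numbered 5, 1 interaction was called. In batch 1 alone, 14 of the 24 genes most like a member were the same.

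With the replicate number as a block, the injury calls were 19, the interaction calls 4, the Hippo pathway calls 27 and those of further targets 32, against 18, 0, 27 and 31 without it. The block lost no injury call. Elsewhere than at 2-weeks the labels do not tie the numbers to animals, and the cause of the added calls was not tested. Depth was no limit for the members, whose lowest count was 27, while the low Tead4 and Ereg counts limit their folds.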
